A study of Homo sapiens with 8 samples.

Results

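Catenins are cytoplasmic proteins that tie cadherins, the calcium-dependent adhesion receptors of the cell surface, to actin filaments. Beta-catenin also carries the Wnt signal to the nucleus, where it acts with TCF and LEF transcription factors, and the delta-catenin branch stabilises cadherins at the membrane. RBFOX2 is a splicing regulator that binds RNA at GCATG, usually in introns beside the exons it controls, and CTNND1 is known for alternative exons that differ between epithelial and mesenchymal cells. RBFOX2 eCLIP peaks were examined here in 5 catenin genes. These were CTNND1 (p120-catenin), CTNND2 (a delta-catenin known mainly from neurons), CTNNA1 and CTNNA2 (the epithelial and neural alpha-catenins) and CTNNB1 (beta-catenin). A peak was a member when its midpoint lay in the RefSeq span of the gene (GRCh38.p14) and its strand was that of the gene. This gave 532 of the 1118316 called peaks of the deposited lists.

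In eCLIP, RNA is crosslinked to protein by ultraviolet light, the protein is immunoprecipitated (IP), and the RNA fragments that come down with it are sequenced. All samples were HEK293T, an established human embryonic kidney cell line, with no genetic change or drug named in the labels. There were 4 IP libraries with an antibody to RBFOX2, and 4 input libraries, each the 2% of a lysate set aside for its IP. The cells were irradiated at 254 nm with 400 mJ/cm2 before lysis. The labels do not say whether replicates 1 to 4 were separate cultures, so the spread between them may be technical.

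Each list set 1 IP against its own input and gave each peak a log2 fold (IP over input) and a −log10 p, both the authors' values. The lists held 267691, 281701, 288305 and 280619 called peaks, of which few were enriched over input. Read totals were not used here, so the depth behind a fold was not measured. Within a list many catenin peaks had exactly the same fold, so the folds moved in steps. These steps lay near the log2 of ratios of small whole numbers, such as 0.58, 1.00, 1.58, 2.00 and 2.32 in CTNND1 in replicate 1. Whether only a few reads lay behind such folds was not tested. Means, SDs and p-values computed from the folds rest on such stepped values. By the rule for members, all 532 catenin peaks lay on the coding strand of their gene. No called peak lay on the other strand of the 5 spans.

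Called peaks were found in 3 of the 5 genes. CTNND1 (chromosome 11, 57761802 to 57819540, plus strand) held 44, 49, 49 and 41 called peaks in replicates 1 to 4. CTNNA1 (chromosome 5, 138753425 to 138935034, plus strand) held 41, 33, 45 and 39. CTNNB1 (chromosome 3, 41199505 to 41240443, plus strand) held 45, 47, 52 and 47. The counts of these genes were alike, but their spans were not. Per 10 kb of span, CTNNB1 had 11.7 ± 0.729 called peaks, CTNND1 7.92 ± 0.684 and CTNNA1 2.17 ± 0.275 (SD, n = 4 for each). The plus-strand span of CTNND1 is overlapped by the readthrough gene TMX2-CTNND1, and peaks cannot be assigned to one or the other. CTNNA1 is overlapped on the minus strand by LRRTM2 and CTNNA1-AS1.

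No called peak was listed for the remaining genes in any replicate. CTNNA2 (chromosome 2, 79185377 to 80648780, plus strand) covers 1463 kb and CTNND2 (chromosome 5, 10971836 to 11904446, minus strand) covers 933 kb, so both spans are longer than those with peaks. A list of called peaks does not give the RNA level, and nothing about binding to these transcripts can be read from a gene with no peak.

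**Figure D1:**
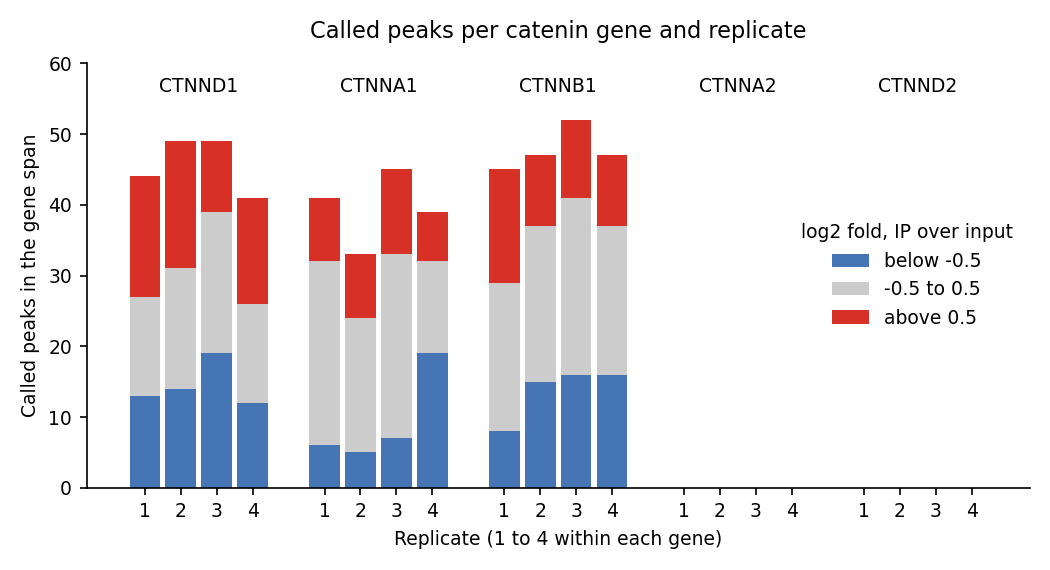
Number of called peaks (vertical axis) in the span of each catenin gene in replicates 1 to 4 (horizontal axis), stacked by the log2 fold of IP over input. CTNND1, CTNNA1 and CTNNB1 held between 33 and 52 called peaks in each replicate, and CTNNA2 and CTNND2 held 0.

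The catenin peaks showed little enrichment. Enriched peaks were those that reached both 3 in log2 fold and 3 in −log10 p, limits customary for eCLIP. By this rule 1 of the 532 catenin peaks was enriched, against 0.818% of all called peaks. It lay in CTNND1 in replicate 3 (chromosome 11, 57762427 to 57762503), with a log2 fold of 3.91 and a −log10 p of 3.56. CTNNA1 and CTNNB1 had 0 enriched peaks in each replicate. The share of called peaks that were enriched was 0.171% ± 0.342 in the catenin genes and 0.803% ± 0.0460 in all other genes with a known strand (SD, n = 4 for both). The catenin share minus that of other genes was −0.844, −0.840, −0.0924 and −0.752 percentage points in replicates 1 to 4 (mean −0.632 ± 0.362), and thus negative in 4 of 4, least so in the library with the enriched peak. The difference could not pass 0.05 in this design (exact two-sided sign-flip permutation, p = 0.13, the smallest that 4 replicates allow).

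Without the limit on p, 5 catenin peaks reached a log2 fold of 3, against 1.39% of all called peaks, and all 5 were in CTNND1. There were 0, 2, 2 and 1 of them in replicates 1 to 4. The nearest peak of another catenin gene was in CTNNA1 in replicate 4 (chromosome 5, 138880807 to 138880932), with a log2 fold of 3.0 after rounding, just under the limit, and a −log10 p of 1.41. The highest value of CTNNB1 was 2.58, also in replicate 4. Merging the enriched peaks of all lists gave 3371 regions, of which 16.4% were enriched in all 4 replicates. The catenin genes held 1 of these regions, enriched in 1 replicate, and 0 regions enriched in all 4.

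Peaks with smaller folds were spread to both sides of 0. In CTNND1, 60 of 183 peaks (32.8%) had a log2 fold above 0.5 and 58 (31.7%) one below −0.5. In CTNNA1 each class held 37 of 158 peaks (23.4%). In CTNNB1 there were 47 of 191 (24.6%) above and 55 (28.8%) below. Of all called peaks, 31.4% were above 0.5 and 23.6% below −0.5. CTNND1 thus stood close to the background above 0.5, and the other genes under it. Below −0.5, CTNND1 and CTNNB1 stood over the background and CTNNA1 close to it. CTNNA1 in replicate 4 differed from the other libraries, with 19 of 39 peaks below −0.5 against 6 of 41, 5 of 33 and 7 of 45 in replicates 1 to 3.

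Averaged over all its called peaks, CTNND1 had a log2 fold of 0.20, 0.11, −0.13 and 0.22 in replicates 1 to 4 (mean 0.10 ± 0.16, SD, n = 4). CTNNA1 had 0.12, 0.14, 0.051 and −0.34 (mean −0.0095 ± 0.23). CTNNB1 had 0.22, −0.13, −0.19 and −0.23 (mean −0.083 ± 0.21). The ranges of the 3 genes overlapped, and neighbours in this order did not differ beyond their spread. CTNND1 was above CTNNA1 in 2 of 4 replicates, by 0.11 ± 0.32 on average (exact sign-flip permutation, two-sided p = 0.75, Benjamini-Hochberg adjusted p = 0.75 over the 2 pairs that could be tested). It was above CTNNB1 in 3 of 4 replicates, by 0.18 ± 0.21 (exact permutation p = 0.25, adjusted p = 0.50). Without replicate 4 the difference from CTNNA1 changed sign, to −0.042. All other genes together had a mean of 0.17 ± 0.029 (SD, n = 4), and its SD was smaller than those of the catenin genes, which rest on fewer peaks. Among 2949 genes with at least 20 called peaks in every replicate, 44.7% had a higher mean than CTNND1, 65.4% a higher mean than CTNNA1 and 76.6% a higher mean than CTNNB1. Of these genes, TICRR, CNN3 and BAZ1B lay nearest to CTNND1 in their mean log2 fold over the 4 replicates (Euclidean distances 0.024, 0.067 and 0.070). They were picked as the nearest of 2947 genes, so distances under the median of 0.51 follow from the choice. They had 0 enriched peaks.

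**Figure D2:**
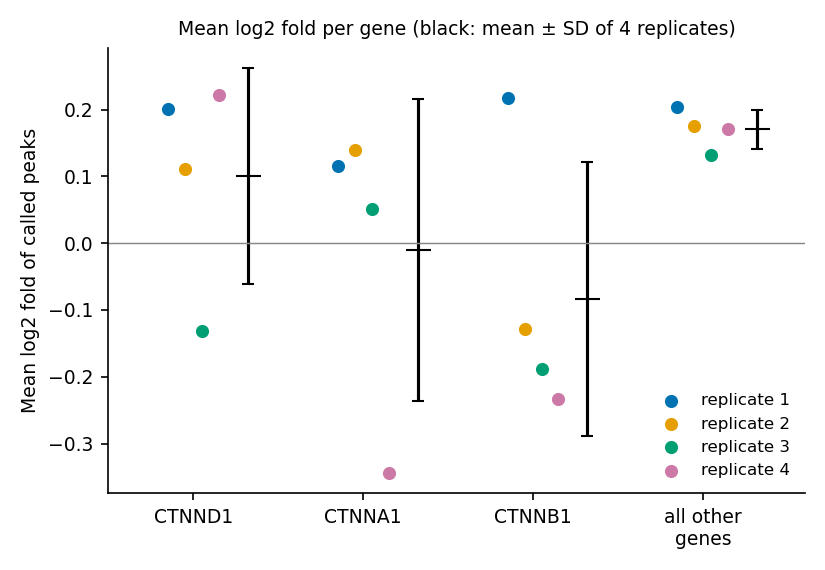
Mean log2 fold (IP over input, vertical axis) of the called peaks of 3 catenin genes and of all other genes with a known strand. Coloured points are replicates and black bars the mean ± SD of 4 replicates. The catenin genes overlap each other, with means of 0.10, −0.0095 and −0.083.

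The average over a gene hides its sites, so positions that recurred between replicates were examined next. Called peaks of the 4 lists sharing 1 nt or more on a strand were merged. In the catenin genes this gave 291 regions, and 36 of them (12.4%) had a called peak in all 4 replicates, against 7.06% of the 701159 regions of the whole series. Recurrence differed among the genes. In CTNNB1, 21 of 77 regions (27.3%) were found in all 4 replicates, in CTNND1 11 of 108 (10.2%) and in CTNNA1 4 of 106 (3.77%). Most CTNNA1 peaks were seen in 1 library, with 76 of its 106 regions in a single replicate.

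For each of the 49493 recurrent regions of the series, the most significant peak stood for a replicate, and the mean of the 4 folds was tested against 0 in 1 limma fit over all regions. Where peaks of a replicate tied in −log10 p, the one with the higher fold was taken. Peaks with a fold below 0 all had a −log10 p of 0, so among them the choice favoured the higher fold. Of the 36 catenin regions, 3 (8.33%) were higher in IP than in input at a Benjamini-Hochberg adjusted p of at most 0.05, against 21.1% of all regions tested. In the other direction 1 (2.78%) was lower, against 1.81%. The median of the mean log2 fold was 0.14 over the catenin regions and 0.50 over all regions. All 4 called regions were in CTNND1, where 3 of 11 regions (27.3%) were higher, a share near the background. CTNNA1 had 0 of 4 and CTNNB1 0 of 21 regions called by limma in either direction. At an unadjusted p under 0.05, CTNNA1 had 0 and CTNNB1 had 1, which was lower in IP.

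**Figure D3:**
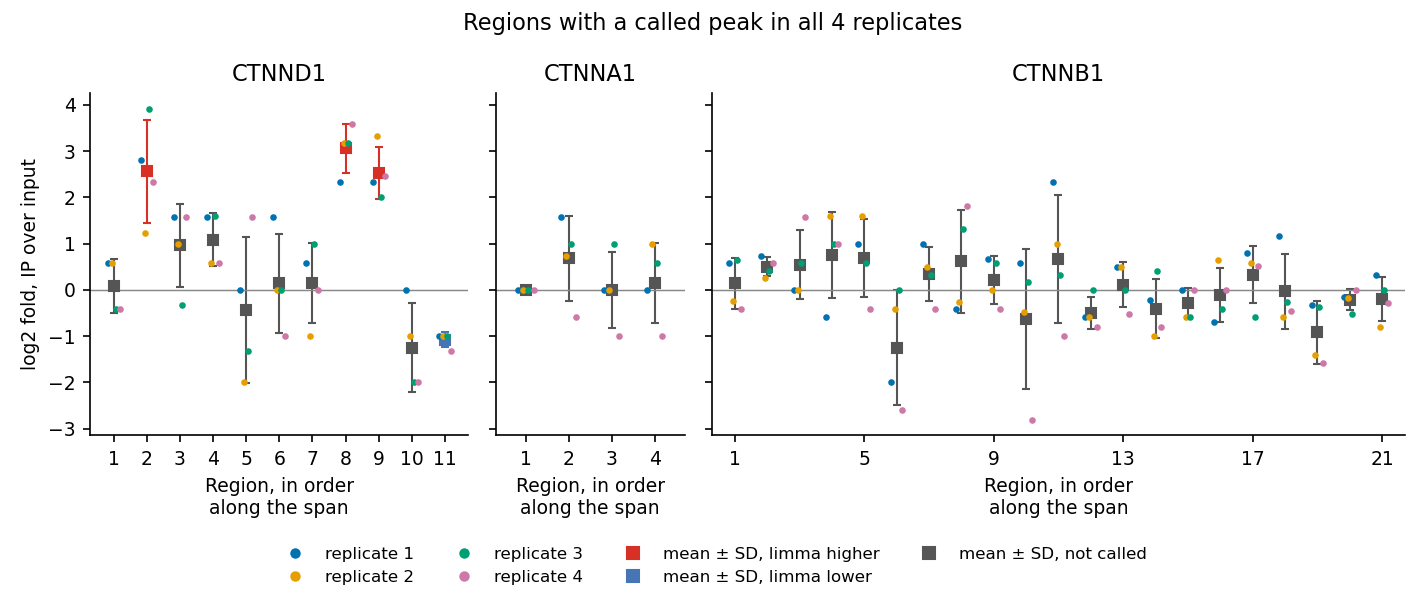
Log2 fold (IP over input, vertical axis) in each region with a called peak in all 4 replicates, ordered along the span (horizontal axis). Small points are replicates, and squares with bars are the mean ± SD of 4 replicates, coloured by the limma call. CTNND1 regions 2, 8 and 9 are the higher ones, and no region of CTNNA1 or CTNNB1 was called.

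The strongest catenin region was in CTNND1, 44765 nt into the span (chromosome 11, 57806509 to 57806626, plus strand). Replicates 1 to 4 gave log2 folds of 2.32, 3.17, 3.17 and 3.58 there (mean 3.06 ± 0.53, SD, n = 4; limma adjusted p = 0.00558). All 4 replicates were well above 0, and replicate 1 was the lowest. The 4 peaks shared a stretch of 82 nt, and their starts lay within 21 nt of each other. Ranked by mean fold it was number 1454 of the 49493 regions. Its −log10 p was 0.660, 1.93, 1.93 and 2.47, so no replicate passed the limit for an enriched peak.

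Another higher region lay 54148 nt into CTNND1, 3590 nt before the end of the span (57815851 to 57816050). Its log2 fold was 2.32, 3.32, 2.00 and 2.46 (mean 2.53 ± 0.57; limma adjusted p = 0.00798). The best peaks of the 4 replicates shared 60 nt there, and the region also held smaller peaks of replicates 1, 3 and 4 with folds between −0.59 and 1.00. The other higher region, 658 nt into the span (57762418 to 57762503), contained the only enriched catenin peak. Its log2 fold was 2.81, 1.22, 3.91 and 2.32 (mean 2.56 ± 1.11; limma adjusted p = 0.0209). Tested against a log2 fold of 1 it was no longer called (limma adjusted p = 0.114). Replicate 2 was the lowest and replicate 3 the highest at this place, and the 4 peaks shared 71 nt. The 2 regions of this paragraph lie outside the rule for named regions and were chosen after their values were seen.

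Most of these calls were lost when any 1 library was left out. Without replicate 1, 3 or 4, no catenin region was past 0.05 in either direction by limma, with 5 to 6 higher and 2 to 3 lower at an unadjusted p under 0.05. Without replicate 2 the region near the end of CTNND1 was (limma adjusted p = 0.0498). The strongest CTNND1 region had an adjusted p between 0.0506 and 0.0544 in these fits. Without replicate 1 or without replicate 4 the fit called 0 regions in the whole series, while 2470 regions of other genes or places were higher without replicate 3. The mean folds of the 3 regions stayed between 2.12 and 3.31.

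A further region near the start of CTNND1 was above 0.5 in every library. The stretch from 57762652 to 57762771 in CTNND1 had log2 folds of 1.58, 0.59, 1.59 and 0.58 (mean 1.09 ± 0.58; limma adjusted p = 0.0663), and did not pass the test. With it, 4 of the 11 recurrent CTNND1 regions had a log2 fold above 0.5 in all 4 replicates, against 22.9% of all recurrent regions. CTNNA1 and CTNNB1 had 0 such regions.

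The lower region was also in CTNND1, 2255 nt before the end of the span (57817266 to 57817305), and was likewise chosen after its values were seen. Its log2 fold was −1.0, −1.0, −1.0 and −1.32 (mean −1.08 ± 0.16; limma adjusted p = 0.0284). It was the only catenin region below −0.5 in all 4 replicates, against 2.16% of all recurrent regions. Its −log10 p was 0 in each list, as it was for every called peak with a fold below 0. All 4 folds recurred exactly at other catenin peaks of the same lists. The small SD can therefore come from tied values and need not measure agreement between libraries, which was not tested. With eBayes set to trend and robust together the limma adjusted p was 0.0596. The region 57816607 to 57816641 had the lowest mean of the gene, with folds of −0.00087, −1.0, −2.0 and −2.0 (mean −1.25 ± 0.96; limma adjusted p = 0.104). The last 5 kb of CTNND1 thus held a higher and a lower region.

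In CTNNA1, which links the cadherin complex to actin through alpha-catenin, the highest recurrent region (chromosome 5, 138783264 to 138783373) had log2 folds of 1.58, 0.74, 1.00 and −0.59 (mean 0.68 ± 0.92; limma adjusted p = 0.297). Replicate 4 lay below 0 there. The lowest means were those of 138762626 to 138762735 and 138790201 to 138790355, both 0.00020. In the first of these all 4 replicates were close to 0, while the other ran from −1.0 to 1.0. The gene had recurrent called peaks without recurrent enrichment.

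CTNNB1 had the most recurrent regions of the 3 genes. The mean log2 fold was above 0.5 in 6 of its 21 regions, below −0.5 in 3 and between in 12. In 6 regions at least 1 replicate was above 0.5 and another below −0.5. The highest mean belonged to 41202033 to 41202111, with −0.59, 1.59, 1.00 and 1.00 (mean 0.75 ± 0.93; limma adjusted p = 0.270). The lowest belonged to 41224020 to 41224079, with −2.0, −0.41, 0.00077 and −2.59 (mean −1.25 ± 1.24; limma adjusted p = 0.154). Replicates disagreed widely in both. In 41224020 to 41224079, replicate 3 also had a peak at −1.0 that the fit did not use. With the longest peak of each replicate taken, the mean of that region was −1.50 (limma adjusted p = 0.0715).

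One CTNNB1 region (41199511 to 41199673) reached into a RefSeq window for which a sequence was at hand. Its log2 folds in the fit were 0.58, −0.24, 0.64 and −0.42 (mean 0.14 ± 0.55; limma adjusted p = 0.775). Near the start of the gene span each of the 4 replicates had a called peak in this region, with log2 folds of 0.58, −0.24, 0.22 and −1.0. In replicates 3 and 4 this was not the peak used in the fit. The stretch below, from 20 to 49 nt after the start of the span, is common to the 4 peaks and to the RefSeq promoter window of CTNNB1 (GRCh38.p14, chr3:41199525-41199554, plus strand). It is shown as an example of a recurrent catenin site without enrichment, 5′ to 3′, with no base in capitals because the RBFOX letters GCATG were not found in it on either strand.

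CTNNB1 start: gcagcgttggcccggccccgggagcggaga

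GCATG or its reverse complement CATGC was present in 3.43% of the last 30 bases of the 34943 RefSeq promoter windows, and in 29.5% of the whole windows of 300 bases. Both strands were counted, so each share is an upper limit for GCATG on the coding strand. A window ran from 250 bases upstream to 50 bases downstream of a start, so most of it lies before the annotated transcript. The whole CTNNB1 window held neither. The CTNND1 regions lie outside these windows, and neither their sequences nor their exon or intron class were analysed here.

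The partners of the catenins gave a comparison from the same fit. Their lists were not free of catenin relatives, as they included CTNNA3, JUP, ARVCF and PKP4. Of 32 partner genes, 24 had a strand in the RefSeq promoter table and 23 of these had called peaks. They held 9 enriched peaks among 3764 (0.239%), against 0.818% of all called peaks, and no region enriched in 3 or more replicates. By limma, 35 of their 154 recurrent regions (22.7%) were higher, near the 21.1% of all recurrent regions, and 4 were lower, where the share over all regions was 1.81%. Among adherens junction partners 17 of 63 regions (27.0%) were higher and 2 lower (median mean log2 fold 0.50). The share varied by gene, with 6 of 9 higher in ARVCF, 4 of 10 in CDH2, 4 of 19 in PKP4, 3 of 19 in AFDN and 0 of 6 in VCL. Among members of the destruction complex, which marks beta-catenin for degradation, 4 of 31 (12.9%) were higher and 1 lower (median 0.25). Among nuclear partners 14 of 60 (23.3%) were higher and 1 lower (median 0.67). TCF7L2 alone held 53 of these 60 regions, 13 of the higher ones and the lower one, so the values of this list mostly describe 1 gene.

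The 3 partner genes with the highest called region are described by that region. ARVCF, a relative of p120-catenin that also binds cadherins, had a region (chromosome 22, 19970924 to 19971232) with log2 folds of 3.32, 2.00, 4.17 and 4.00 (mean 3.37 ± 0.99; limma adjusted p = 0.00882). AFDN, the afadin scaffold of nectin junctions, had one (chromosome 6, 167893777 to 167893900) with 3.32, 3.70, 3.17 and 2.81 (mean 3.25 ± 0.37; limma adjusted p = 0.00448). TCF7L2, a transcription factor that binds beta-catenin, had one (chromosome 10, 113158390 to 113158558) with 3.46, 3.0, 2.46 and 3.0 (mean 2.98 ± 0.41; limma adjusted p = 0.00487). All 4 libraries were at or above 2.00 in each of the 3 regions named.

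**Figure D4:**
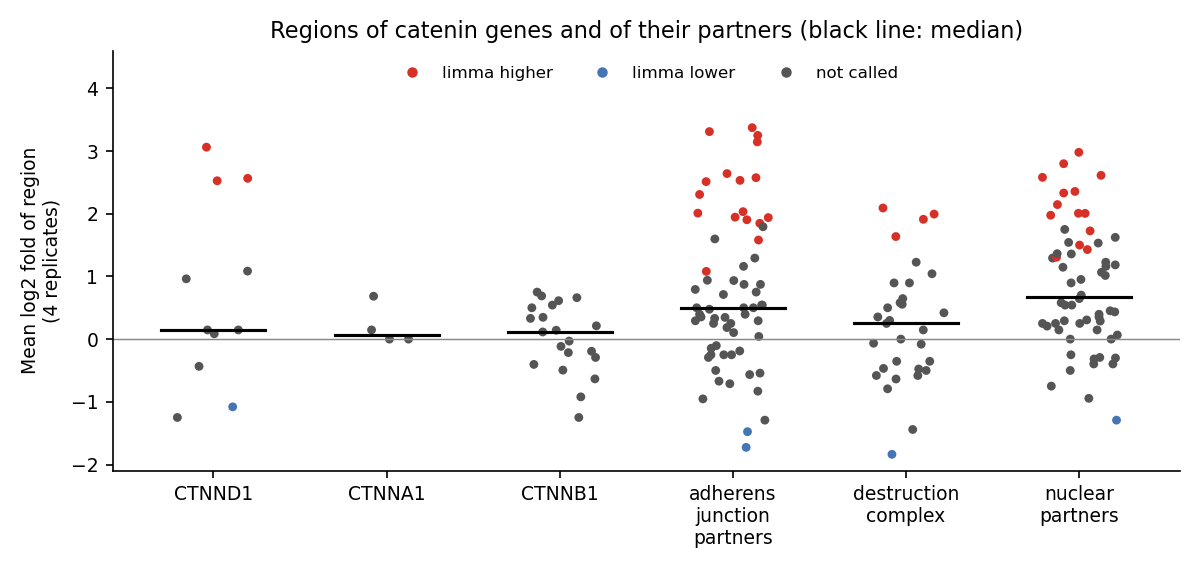
Mean log2 fold over 4 replicates (vertical axis) of each recurrent region in 3 catenin genes and in the partner genes, grouped by list (horizontal axis). Points are regions coloured by the limma call and black lines are medians. The medians are 0.15, 0.073 and 0.11 in CTNND1, CTNNA1 and CTNNB1, and between 0.25 and 0.67 in the partner lists. Of the 60 nuclear partner regions, 53 are in TCF7L2.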

How the data were processed

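RBFOX2 eCLIP was deposited as 1 peak list per IP library, set by the authors against the input of the same number. The submitters' processing notes name UMI-tools 1.1.1, cutadapt 3.2, STAR 2.7.7a and the builds hg38 and GRCh38.p13. The peak caller, the p-value test and the scaling are not given in the sources used here. The lists have no header. The deposited −log10 p-value (0 to 400) and the deposited log2 fold were recognised from their values.

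Gene spans and strands came from RefSeq tables of GRCh38.p14, and 27306 of 59792 genes had a strand. The strand of CTNND1 was that of TMX2-CTNND1. Regions were tested with limma 3.58.1 in R 4.3.3 (intercept only, eBayes without trend, two-sided, Benjamini-Hochberg over 49493 regions). The fit was tried on simulated data, which were continuous normal values. They lacked the steps and ties of the real folds, so that trial does not show how the fit handles these. Named regions are those enriched in at least 2 replicates and the highest and lowest per gene. Partner genes were named by a region enriched in at least 3 replicates, otherwise the 3 genes with the highest called region were named, each by that region. Python 3.11.15, pandas 2.3.3 and scipy 1.17.1 were used. The members, the lists and the tests were chosen with earlier results of these data known. Alternatives varied thresholds, strand, overlap, the peak taken, the limma settings and the replicates.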

Additional observations from a re-analysis of the deposited data

Results flagged for a closer look

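The number of enriched peaks in CTNND1 was 0, 0, 1 and 0 in replicates 1 to 4, so replicate 3 passed Dixon's criterion for 4 samples, as any single peak in 1 of 4 lists would. In the lower CTNND1 region starting at 57817266, replicate 4 had a log2 fold of −1.32 while the other three lay at −1.0, and it also passed that criterion. For continuous values chance alone passes about 1 in 20 groups, and 16 groups were examined. That rate does not hold for such counts or for folds that repeat within a list.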

How the results depend on the processing

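The count of 0.25 enriched catenin peaks per replicate became 0 with the −log10 p limit raised to 5, and lay between 0 (without replicate 3) and 0.333 when 1 replicate was left out. A log2 fold of at least 1, any overlap with the span and either strand left it at 0.25. Regions enriched in all 4 replicates numbered 0 under each alternative run. The 3 higher regions by limma became 2 against a log2 fold of 1, where that starting at 57762418 lost its call (adjusted p = 0.114). They became 1 in the subset where some replicate reached a −log10 p of 3, in which 1 catenin region was tested, and between 0 and 1 without 1 replicate. The 1 lower region became 0 against a log2 fold of 1 and 0 in each fit without 1 replicate. It was also 0 in that subset, which a region with a −log10 p of 0 in every list could not enter. With eBayes set to trend and robust together the count stayed at 1, but the region was that starting at 57816607 (limma adjusted p = 0.0439). The difference of CTNND1 from CTNNA1 ran from −0.0419 (without replicate 4) to 0.208 when 1 replicate was left out. With medians it was 0, and the difference from CTNNB1 was 0.066. Over peaks with a −log10 p above 0 these differences were 0.368 and 0.756 (exact permutation p = 0.13 for both, the smallest possible). The share difference from other genes was negative under each alternative, and with 3 replicates the smallest exact permutation p is 0.25. No paired analysis was possible because IP and input values are not given apart for a block on the replicate number. The pairing of an IP with its input is already in each fold, and gene differences were taken within replicates. The motif comparison of enriched regions and its alternatives were not run, since sequence was at hand for RefSeq promoter windows only.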

Other observations

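The ends of the gene spans were compared after the values had been seen. In CTNNB1, called peaks in the first 5 kb had a mean log2 fold of 0.10, 0.49, 0.55 and 0.30 in replicates 1 to 4, and those in the last 5 kb had 0.44, −0.30, −0.74 and −0.30. The first were higher in 3 of 4 replicates, by 0.59 ± 0.68 (SD, n = 4; exact sign-flip permutation, two-sided p = 0.25), which is within the spread. In CTNND1 the difference was 0.089 ± 0.25, with 2 of 4 replicates positive (exact permutation p = 0.75). Over 8937 other protein-coding genes of at least 20 kb it was −0.0092 ± 0.022. CTNNA1 had no called peak in the first 5 kb in replicate 2.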
